A study of Mus musculus with 6 samples.

Results

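The genes described here are 37 regulators of programmed cell death: caspases, proteins of the BCL2 family, death receptors with their adaptors, inhibitors of apoptosis, and p53 with its ligase. They were taken as a list of symbols, and each was read from a probe set that names only that gene, the one with the highest mean where a gene had several. Of the 37, 34 had such a probe set, among 19935 genes in all. Bax, Ripk1 and Trp53 are not analysed here. Levels were measured on 6 Affymetrix arrays. The 4 WT arrays came from wild-type male mice and the 2 Y1KO arrays from male mice lacking Y1, the neuropeptide Y receptor encoded by Npy1r. All mice of both groups also carried GFP under a 3.6-kb promoter fragment of the rat alpha1(I)-collagen gene, which is active in the osteoblast lineage. Marrow stromal cells of femur and tibia were grown for 7 days and the GFP-positive cells were sorted. The labels give neither strain and age nor how Y1 was deleted.

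Apoptosis runs along a pair of routes that meet at executioner caspases. In the mitochondrial route, BH3-only proteins sense damage and free the pore-forming effectors from anti-apoptotic BCL2 proteins, and the released cytochrome c assembles with APAF1 to activate caspase-9. In the receptor route, Fas and TNF receptors recruit FADD and caspase-8, and where caspase-8 is blocked the kinases RIPK1 and RIPK3 can start necroptosis, a lytic death. Apoptosis of osteoblasts is a regular end of their life in bone, beside becoming osteocytes or lining cells.

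The arrays of a genotype resembled each other more than those of the other, with correlations over all genes of 0.991 to 0.996 within WT, 0.996 between the Y1KO arrays and 0.976 to 0.987 across genotypes. Npy1r read 3.11, 2.84, 2.78 and 3 in WT and 2.89 and 2.83 in Y1KO. It lay at percentile 9.4 in WT, too dim to check the genotype labels. All 9 measured osteoblast markers lay above the median gene in WT, and 0 of them passed the limma test (3 had an unadjusted p under 0.05, all higher). Their summed linear level was 37154 to 44334 in WT and 50154 and 50308 in Y1KO, and 6 of the 9 were higher in Y1KO without overlap, as were 17.5% of all genes. Of 17 macrophage markers, 11 rose in Y1KO, and their summed linear level was 1024 to 1338 in WT and 1555 and 2373 in Y1KO. All 19 measured cell cycle genes fell, with summed levels of 7734 to 8510 in WT and 4873 and 4194 in Y1KO. Of 11 smooth muscle and pericyte markers, 8 fell and 1 rose, with summed levels of 15171 to 18441 and 9426 and 8786. Granulocyte and lymphocyte markers were dim: 7 of 9 and 5 of 9 lay below percentile 25 in WT, 0 and 1 of them rose by limma (2 and 1 were higher at an unadjusted p under 0.05), and 0 fell. Of 9 endothelial markers 1 fell. The count of rising macrophage markers was 4 without WT replicate 4. Without Y1KO replicate 2, 1 macrophage marker rose, 11 cell cycle genes fell and 5 smooth muscle genes fell. The part of these shifts in the results below was not tested, and in bulk RNA fewer cells of a type cannot be told apart from less RNA per cell.

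Of the cell death genes, 4 fell in Y1KO, Casp1, Ripk3, Bok and Casp8, and the other 30 measured did not pass the test. All values are log2 levels, and a difference is the Y1KO mean less the WT mean of these levels. A gene was called where the limma p-value, adjusted by Benjamini-Hochberg over all 19935 genes, was under 0.05. Of the 34 members, 4 were called (11.8%), against 12.7% of all genes. The 4 were lower in Y1KO, where 6.64% of all genes were called lower, and 0 were called higher, against 6.10% of all genes. At an unadjusted limma p under 0.05 there were 12 members (35.3%), 3 higher and 9 lower, against 24.3% of all genes. The share called at the adjusted threshold is near that of all genes, but 29 of the 34 members lay above the median gene in WT. With only genes above the 40th percentile of mean level in the fit, 23.0% of them were called, and 29.1% above the 60th. The filter at the 40th percentile kept the 34 members and the 4 calls, and added Bcl2, Bid and Fas to the members called. The filter at the 60th kept 24 members and the 4 calls, and added Bcl2 and Bid. The median difference over the 34 was -0.15, against 0.0071 over all genes, and 25 of the 34 (73.5%) had a negative difference, as did 48.4% of all genes. With median-centred arrays 21 of the 34 were negative, and the medians moved to -0.09 for the members and 0.07 for all genes. Both Y1KO arrays lay below every WT array in 15 members (17.3% of all genes did) and above in 3 (17.5% did), so groups did not overlap in 52.9% of the members and in 34.8% of all genes. Genes called higher made up 47.9% of all calls, and 60.5% after median centring of the arrays.

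**Figure D1:**
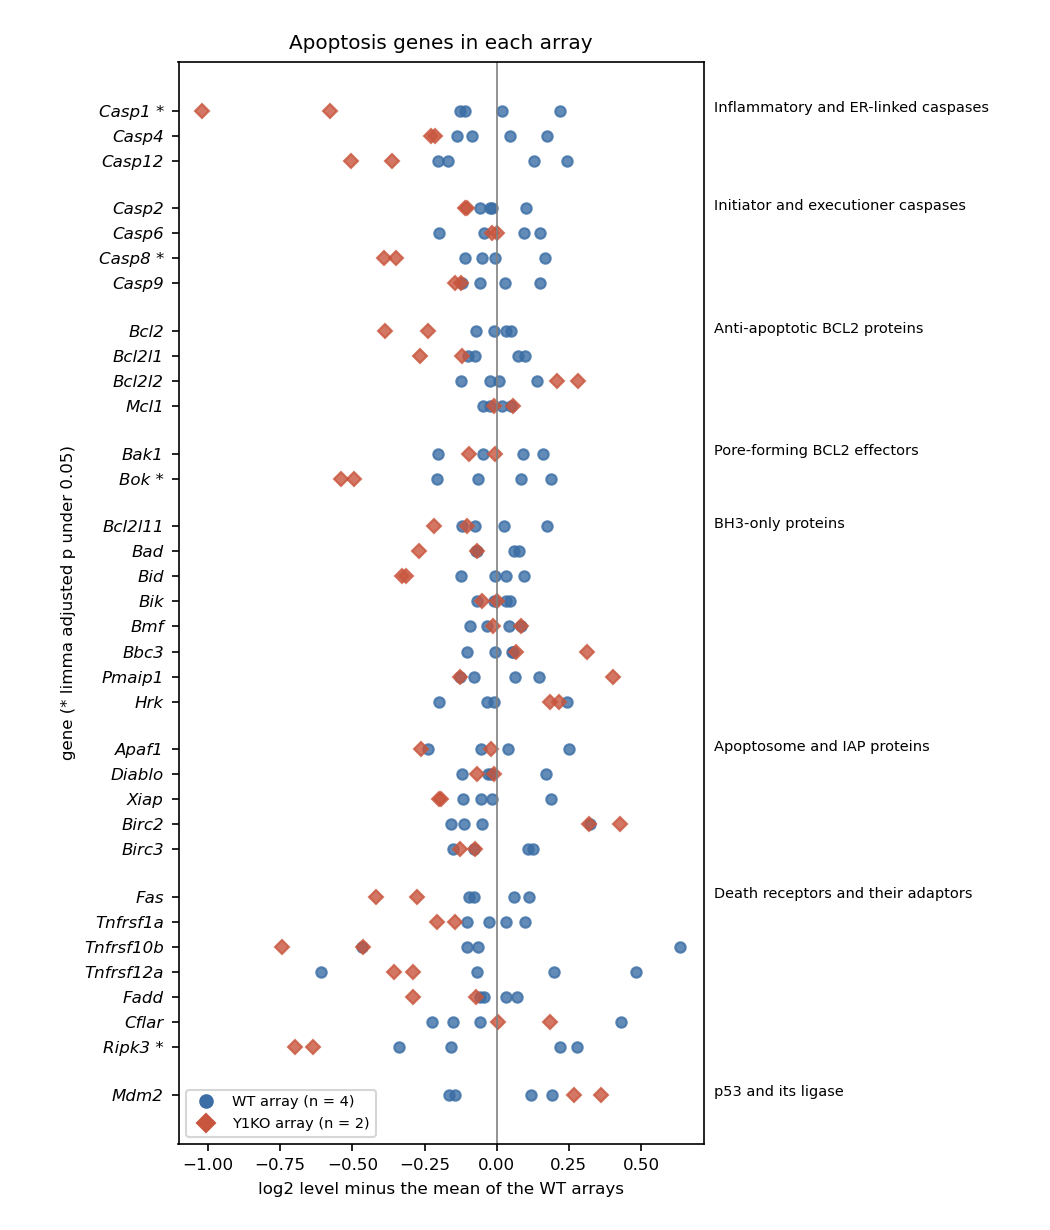
Log2 level of each of the 34 measured genes in every array, as the distance from the mean of the WT arrays (x axis), grouped by role. Blue circles are the 4 WT arrays, red diamonds the 2 Y1KO arrays, and an asterisk marks a limma adjusted p under 0.05. The Y1KO diamonds lie left of all WT circles in 15 genes and right of them in 3, and farthest left for Casp1.

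The calls of Ripk3, Bok and Casp8 were lost without either Y1KO array. That of Casp1 was lost without Y1KO replicate 2 and kept without Y1KO replicate 1. With either array left out, the Y1KO group had 1 array and fewer genes were called among all genes too. Such a loss is therefore not particular to these members, and the differences of the 4 genes called lower stayed negative. Of the 4, 2 remained without WT replicate 1, where 10.3% of all genes were called. Centring the arrays on their medians left 2, Casp1 and Bok, where 13.2% of all genes were called.

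The stretches of genome before the starts of the 4 genes that fell are shown because interferons, acting through IRF and STAT factors, are known inducers of several cell death genes. Each is the 250 bases upstream of the start in RefSeq on GRCm38.p6, 5′ to 3′ on the gene's strand. The windows are chr9:5298267-5298516 (plus strand) for Casp1, chr14:55788858-55789107 (minus strand) for Ripk3, chr1:58802252-58802501 (plus strand) for Casp8 and chr1:93685325-93685574 (plus strand) for Bok. Capitals mark matches on either strand to the IRF core AANNGAAA or to the gamma-activated site TTCNNNGAA of STAT factors.
Casp1: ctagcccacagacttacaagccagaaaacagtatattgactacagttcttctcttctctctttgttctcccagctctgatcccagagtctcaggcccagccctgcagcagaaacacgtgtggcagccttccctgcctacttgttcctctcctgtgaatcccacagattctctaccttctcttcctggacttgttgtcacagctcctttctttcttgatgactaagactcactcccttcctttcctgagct
Ripk3: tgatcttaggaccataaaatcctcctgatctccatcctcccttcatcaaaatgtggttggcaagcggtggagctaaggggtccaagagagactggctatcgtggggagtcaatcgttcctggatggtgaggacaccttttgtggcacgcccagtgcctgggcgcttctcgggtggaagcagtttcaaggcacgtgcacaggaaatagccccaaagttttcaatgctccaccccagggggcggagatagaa
Casp8: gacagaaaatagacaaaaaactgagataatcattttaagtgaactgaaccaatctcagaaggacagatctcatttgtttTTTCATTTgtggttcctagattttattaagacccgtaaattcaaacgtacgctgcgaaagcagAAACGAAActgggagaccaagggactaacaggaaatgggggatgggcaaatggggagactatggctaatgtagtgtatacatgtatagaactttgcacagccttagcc
Bok: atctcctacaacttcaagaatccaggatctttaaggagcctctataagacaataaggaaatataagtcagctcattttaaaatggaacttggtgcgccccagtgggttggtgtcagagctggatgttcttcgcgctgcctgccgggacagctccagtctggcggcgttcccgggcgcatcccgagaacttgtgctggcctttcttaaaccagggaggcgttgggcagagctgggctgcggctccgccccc
Casp8 held 2 matches to the IRF core, starting 171 and 108 bases before the start, and the windows of Casp1, Ripk3 and Bok held no match to these letters. The IRF core was present in 21.3% of all 32851 upstream windows and in 8 of the 31 members with an entry, namely Casp4, Casp12, Casp8, Bcl2l1, Birc2, Birc3, Fas and Mdm2. The gamma-activated site was present in 7.02% of all windows and in 3 of the 31, Casp12, Fas and Tnfrsf1a. These measures are unlike: the 32851 windows belong to 27025 genes and were counted singly. A member was counted if any of its windows matched. A match is a description of the sequence, not a bound site.

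Of the 3 inflammatory and ER-linked caspases, Casp1 fell in Y1KO, and Casp12 and Casp4 did not pass the test. Casp1 encodes the inflammasome protease that matures interleukin-1 beta and opens the way to pyroptosis. It read 6.75, 6.88, 7.08 and 6.73 in WT and 6.28 and 5.84 in Y1KO. Both Y1KO arrays lay below all WT arrays, and Y1KO replicate 2 was the lower. The mean went from 6.86 ± 0.16 (SD, n = 4) to 6.06 ± 0.31 (SD, n = 2), a difference of -0.80 (SE 0.15, 95% interval -1.13 to -0.47, limma adjusted p = 0.00878), or 1.74-fold. Without Y1KO replicate 2 the difference was -0.58 (limma adjusted p = 0.113), and without Y1KO replicate 1 it was -1.02. Macrophages are a known source of Casp1, and the summed macrophage markers were highest in Y1KO replicate 2, the array in which Casp1 was lowest. The part of macrophages in the Casp1 level of these arrays was not tested. Casp12, a caspase at the ER membrane, read 6.91, 7.25, 7.36 and 6.95 in WT and 6.61 and 6.76 in Y1KO, without overlap, and did not pass the test at -0.43 (SE 0.14, limma adjusted p = 0.0866). Casp4, the mouse sensor of cytosolic lipopolysaccharide, spanned 4.99 to 5.31 in WT and read 4.90 and 4.92 in Y1KO, also without overlap, at -0.22 (95% interval -0.46 to 0.02, limma adjusted p = 0.255). Casp4 lay at percentile 42.5 of all genes in WT, where an array can understate a difference.

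Among the caspases of apoptosis itself, Casp8 passed the test and the other 3 measured did not. Casp8 encodes the initiator of the receptor route, which also restrains necroptosis. It read 8.10, 8.32, 8.14 and 8.04 in WT and 7.80 and 7.76 in Y1KO. The groups did not overlap and the Y1KO arrays were close together. The decrease was 1.29-fold, with a difference of -0.37 (SE 0.10, 95% interval -0.60 to -0.14, limma adjusted p = 0.0459). This call stood at the threshold and was lost when any 1 array was left out (adjusted p 0.0501 to 0.27) and with median-centred arrays (0.0951). It was also lost with the replicate number as a block, where the difference was -0.43 (limma adjusted p = 0.0821). Casp9, the initiator of the mitochondrial route, and Casp2, an initiator linked to DNA damage, differed by -0.13 (95% interval -0.36 to 0.09) and -0.11 (95% interval -0.30 to 0.09). In both genes the Y1KO arrays lay below all WT arrays, by a margin smaller than the WT spread. Casp6, an executioner, overlapped between genotypes at -0.0076 (95% interval -0.26 to 0.25).

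The anti-apoptotic BCL2 proteins did not move as a group, and 0 of 4 passed the limma test (1 higher and 1 lower at an unadjusted p under 0.05). Bcl2, the founding survival gene of the family, read 6.84, 6.96, 6.94 and 6.90 in WT and 6.52 and 6.67 in Y1KO. The WT arrays were close together (SD 0.05, n = 4) and both Y1KO arrays were below them. The difference of -0.31 (SE 0.09, 95% interval -0.52 to -0.11) missed the threshold narrowly at a limma adjusted p of 0.055. Bcl2l1, which encodes BCL-XL, was at -0.19 (95% interval -0.42 to 0.03), also without overlap. Bcl2l2, which encodes BCL-W, went the other way, from 6.40 to 6.66 in WT to 6.80 and 6.73 in Y1KO, a difference of 0.25 (95% interval 0.02 to 0.47, limma adjusted p = 0.162). Mcl1, a short-lived survival protein gene, read 9.54 to 9.63 in WT and 9.57 and 9.64 in Y1KO. Its groups overlapped, and the 95% interval of the difference was -0.17 to 0.21.

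Of the pore-forming effectors, Bok passed the test and Bak1 did not. Bok encodes an effector that can act without the other BCL2 proteins and is held down by degradation at the ER. It read 8.08, 7.97, 7.68 and 7.82 in WT and 7.35 and 7.39 in Y1KO. Both Y1KO arrays lay below the lowest WT array, replicate 3. The mean went from 7.89 ± 0.17 (SD, n = 4) to 7.37 ± 0.03 (SD, n = 2), a difference of -0.52 (SE 0.12, 95% interval -0.79 to -0.25, limma adjusted p = 0.0234), or 1.43-fold. The call was lost without either Y1KO array, at an adjusted p of 0.153 without replicate 1 and 0.149 without replicate 2, while the differences were -0.50 and -0.54. Bak1, the effector that resides on mitochondria, spanned 7.66 to 8.02 in WT and read 7.85 and 7.76 in Y1KO, inside the WT range, at -0.05 (95% interval -0.32 to 0.21).

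The BH3-only genes, the sensors that trigger the mitochondrial route, split by sign, and 0 of 8 passed the limma test (1 lower at an unadjusted p under 0.05). Their median difference was 0.0052. Bid, which carries the signal of caspase-8 to mitochondria, read 7.63, 7.57, 7.53 and 7.41 in WT and 7.21 and 7.22 in Y1KO. Its groups did not overlap, and the difference of -0.32 (SE 0.09, 95% interval -0.53 to -0.11) narrowly missed the threshold at a limma adjusted p of 0.0559. Bad, a sensor of growth factor withdrawal, and Bcl2l11, which encodes BIM, were at -0.17 (95% interval -0.40 to 0.06) and -0.16 (95% interval -0.40 to 0.08), each with 1 Y1KO array inside the WT range. The p53-inducible Bbc3, which encodes PUMA, was at 0.19 (95% interval -0.04 to 0.42), and Pmaip1, which encodes NOXA, at 0.14 (95% interval -0.20 to 0.48). In these genes the Y1KO arrays stood apart from each other: Bbc3 read 6.26 and 6.51, and Pmaip1 6.09 and 6.62, so that Pmaip1 was near the lowest WT array (6.08) in replicate 1 and above the highest (6.36) in replicate 2. Hrk overlapped between genotypes at 0.20 (95% interval -0.08 to 0.48). Bmf and Bik were at 0.04 (95% interval -0.17 to 0.24) and -0.03 (95% interval -0.22 to 0.17), and both lay below the median gene in WT.

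Downstream of the mitochondria 0 of 5 genes passed the limma test (1 higher at an unadjusted p under 0.05). Apaf1, the scaffold of the apoptosome, was at -0.14 (95% interval -0.46 to 0.18), and Diablo, whose product relieves caspases of their inhibitors, at -0.04 (95% interval -0.27 to 0.19). Xiap, a direct inhibitor of caspases, spanned 7.64 to 7.95 in WT and read 7.56 in both Y1KO arrays, at -0.20 (95% interval -0.43 to 0.04). Birc2 and Birc3 encode the ubiquitin ligases cIAP1 and cIAP2 of TNF receptor complexes. Birc2 read 6.05, 6.09, 6.53 and 6.16 in WT and 6.64 and 6.53 in Y1KO, so that WT replicate 3 reached the Y1KO values. Its difference of 0.37 (SE 0.14, limma adjusted p = 0.133) was the highest of the members. It passed the test at 0.48 without WT replicate 3 (limma adjusted p = 0.0147) and at 0.51 with the replicate number as a block (0.0375). In the block fit, too, WT replicate 3 does not bear on the difference. A dimmer probe set of Birc2 gave 0.13. Birc3 was at -0.10 (95% interval -0.34 to 0.14).

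**Figure D2:**
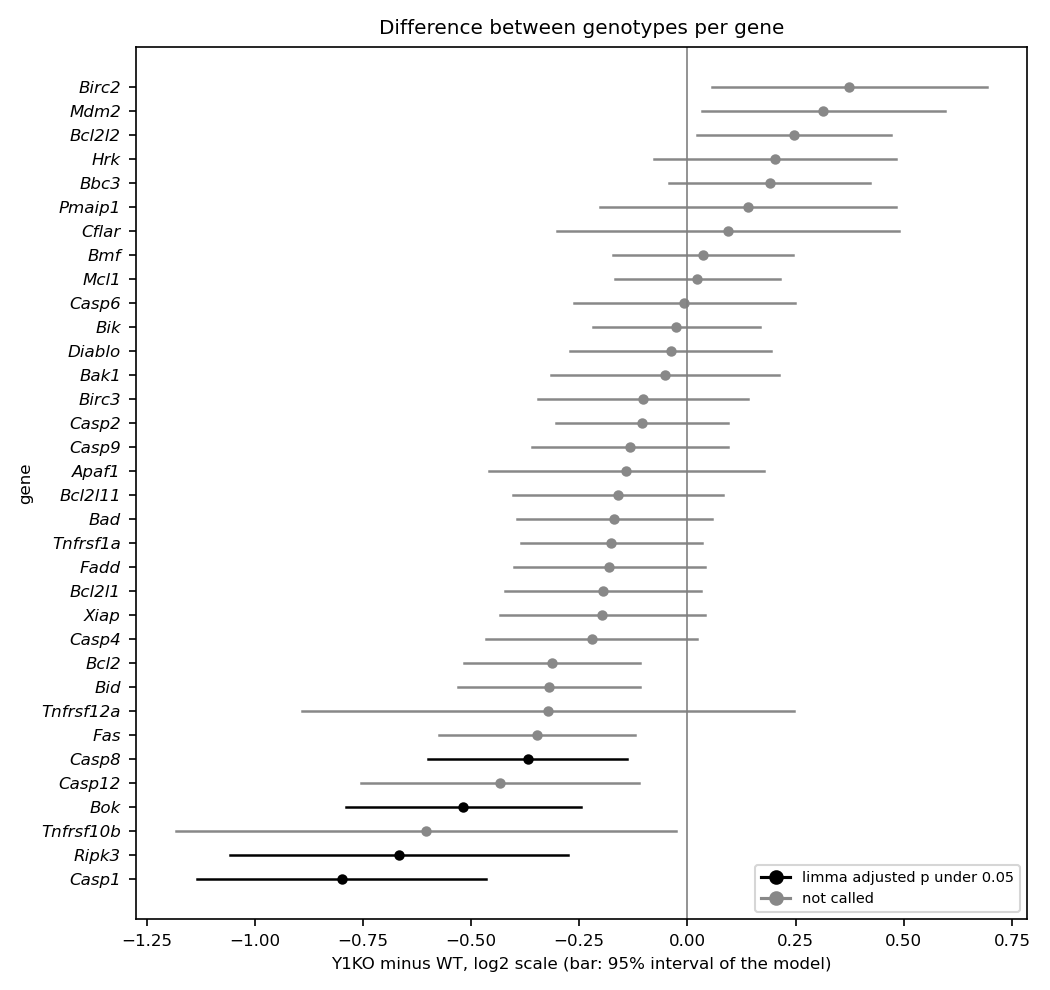
Difference between genotypes for each of the 34 genes (Y1KO minus WT, log2 scale, x axis), ordered by size, with the 95% interval of the limma model as a bar. Black marks the 4 genes with an adjusted p under 0.05, from Casp1 at -0.80 to Casp8 at -0.37; the widest intervals belong to Tnfrsf10b and Tnfrsf12a, whose WT arrays differed the most.

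Of the 7 measured death receptors and adaptors, Ripk3 passed the test (14.3%, against 12.7% of all genes) and 6 did not. At an unadjusted limma p under 0.05, 3 of the 7 were lower and 0 higher (42.9%, against 24.3% of all genes). The difference was negative in 6 of the 7 (85.7%), as in 48.4% of all genes. Ripk3 encodes the kinase that starts necroptosis. It read 9.29, 9.36, 8.74 and 8.92 in WT and 8.44 and 8.38 in Y1KO. The WT arrays fell into a higher and a lower pair, and both Y1KO arrays lay below the lower pair. The mean went from 9.08 ± 0.30 (SD, n = 4) to 8.41 ± 0.04 (SD, n = 2), a difference of -0.67 (SE 0.17, 95% interval -1.06 to -0.28, limma adjusted p = 0.0364), or 1.59-fold. The call was lost without WT replicate 1 (adjusted p = 0.0754), WT replicate 4 (0.0509), Y1KO replicate 1 (0.162) or Y1KO replicate 2 (0.235) and with median-centred arrays (0.0509). Fas, the receptor of Fas ligand, read 5.52, 5.57, 5.38 and 5.37 in WT and 5.18 and 5.04 in Y1KO. Its groups did not overlap, and the difference of -0.35 (SE 0.10, 95% interval -0.57 to -0.12) narrowly missed the threshold at a limma adjusted p of 0.055. Tnfrsf1a, the broadly expressed TNF receptor, and Fadd, the adaptor between receptors and caspase-8, were at -0.18 (95% interval -0.38 to 0.03) and -0.18 (95% interval -0.40 to 0.04), both without overlap.

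The other receptors varied widely among the WT arrays. Tnfrsf10b, the mouse TRAIL receptor, read 7.36, 8.10, 7.40 and 7.00 in WT and 7.00 and 6.72 in Y1KO. WT replicate 2 was highest and WT replicate 4 reached Y1KO replicate 1, so the difference of -0.60 (SE 0.25, 95% interval -1.18 to -0.03) did not pass (limma adjusted p = 0.185). Tnfrsf12a, the receptor of the ligand TWEAK, read 9.52, 9.81, 8.72 and 9.26 in WT and 9.04 and 8.97 in Y1KO. The Y1KO arrays lay inside the WT range, at -0.32 (95% interval -0.89 to 0.25, limma adjusted p = 0.517). Among the alternatives run it passed only with the replicate number as a block, at -0.66 (limma adjusted p = 0.0222). In that fit WT replicates 3 and 4 do not bear on the difference, and WT replicate 3 was the lowest array for Tnfrsf12a. Cflar, which encodes c-FLIP, the catalytically dead relative that holds caspase-8 in check, overlapped at 0.09 (95% interval -0.30 to 0.49), with WT replicate 3 highest at 7.81. Cflar had 3 probe sets naming only it, and the values above are from the brightest. The middle one in level also overlapped, at 0.14 (limma adjusted p = 0.425 with all probe sets as units). The dimmest read 6.75 to 6.92 in WT and 7.07 and 7.09 in Y1KO, without overlap, at 0.26 (limma adjusted p = 0.0964 with all probe sets as units). Mdm2, the ligase that degrades p53 and is itself a p53 target, read 8.64, 8.57, 8.28 and 8.31 in WT and 8.81 and 8.72 in Y1KO, higher without overlap, at 0.31 (SE 0.12, limma adjusted p = 0.153).

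Several members are direct neighbours in the genome, with 0 protein-coding genes between them in the RefSeq order. Casp1, Casp4 and Casp12 follow each other on chromosome 9, and in all 3 both Y1KO arrays lay below every WT array, at -0.80, -0.22 and -0.43. The same held for 17.3% of all genes, and Casp4 and Casp12 did not pass the test. Cflar and Casp8 adjoin on chromosome 1 and differed in sign, at 0.09 and -0.37. Birc2 and Birc3 adjoin on chromosome 9 and also differed in sign, at 0.37 and -0.10. These differences between neighbours were not tested. None of the 37 listed genes is on chromosome 8, which carries Npy1r.

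**Figure D3:**
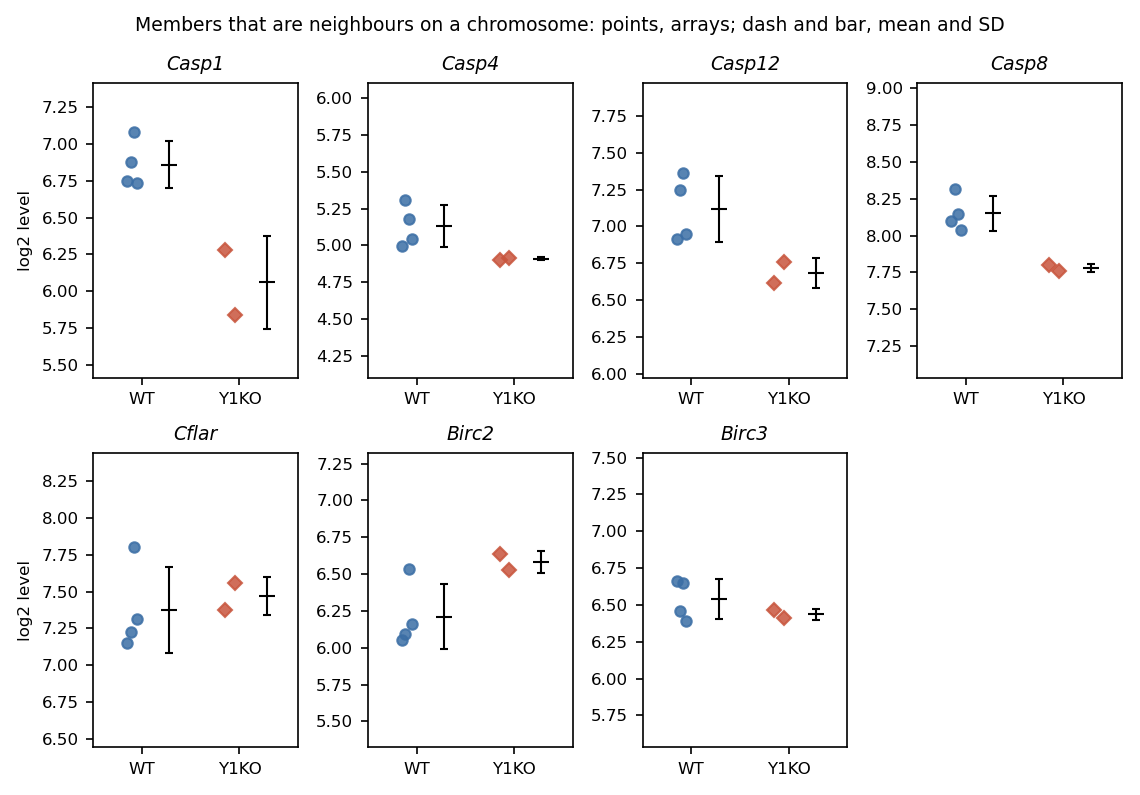
Log2 levels (y axis, each panel spanning the same range of 2 log2 units) of members that adjoin on a chromosome: Casp1, Casp4 and Casp12, Casp8 and Cflar, Birc2 and Birc3. Points are arrays (4 WT, 2 Y1KO), with the mean and SD as a dash and bar beside them. The 3 caspases of the first group and Casp8 are lower in both Y1KO arrays, while Cflar, Birc2 and Birc3 overlap between genotypes.

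Of 37 measured genes of death ligands, TNF receptor signalling and necroptosis, 2 fell and 1 rose (8.11% called, against 12.7% of all genes), with a median difference of -0.05. The 2 that fell were Mlkl, which encodes the pore former that RIPK3 activates, and Zbp1, which encodes a nucleic acid sensor that binds RIPK3. Mlkl read 7.53, 7.81, 7.62 and 7.47 in WT and 7.24 and 7.10 in Y1KO, at -0.44 (SE 0.11, limma adjusted p = 0.0354). Zbp1 read 5.46, 5.67, 5.96 and 5.36 in WT and 5.09 and 4.97 in Y1KO, at -0.58 (SE 0.16, limma adjusted p = 0.0451). Neither gene's groups overlapped, and both lost the call without WT replicate 1, without either Y1KO array and with median-centred arrays. Mlkl also lost it without WT replicate 3 and with the replicate number as a block, and Zbp1 without WT replicate 2 and with quantile normalization. The gene that rose was Ikbkg, which encodes the NEMO subunit of the IkappaB kinase, from 7.22 ± 0.29 (SD, n = 4) to 8.11 ± 0.07 (SD, n = 2), at 0.88 (limma adjusted p = 0.0108), and without either Y1KO array it was not called. Of 17 inflammasome and pyroptosis genes, 1 fell and 1 rose (11.8% called, against 12.7% of all genes). Pycard, which encodes the adaptor that joins sensors to caspase-1, read 4.97, 4.91, 4.95 and 5.03 in WT and 4.50 and 4.60 in Y1KO, at -0.42 (SE 0.09, limma adjusted p = 0.0144). Its WT arrays were close together and both Y1KO arrays lay below them. Pycard was at percentile 39.7 in WT, and its call was lost without either Y1KO array or with the replicate number as a block. Nlrp1a, an inflammasome sensor with near-identical copies in the mouse genome, was at 0.32 (limma adjusted p = 0.0481) at percentile 10.9, and this dim call was lost without any 1 of the 6 arrays. The macrophage markers rose in the same Y1KO arrays, while Casp1 and Pycard, which macrophages also express, were lower. The part of macrophages in the levels of Casp1 and Pycard was not tested.

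**Figure D4:**
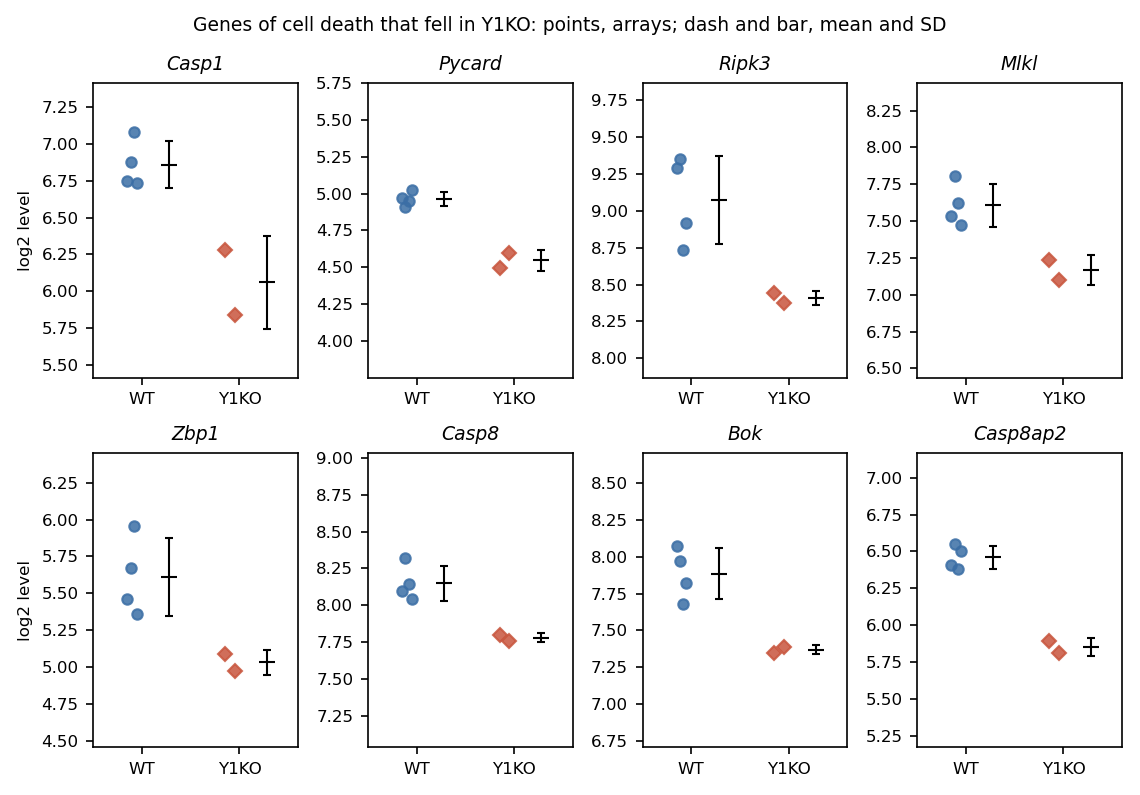
Log2 levels (y axis, each panel spanning 2 log2 units) of 8 cell death genes that fell in Y1KO: the members Casp1, Ripk3, Casp8 and Bok, and Pycard, Mlkl, Zbp1 and Casp8ap2 from the related lists. Points are arrays (4 WT, 2 Y1KO), with the mean and SD beside them. The panels were picked from genes called lower, and other genes that fell, such as Birc5, are not shown. In all 8 panels both Y1KO arrays lie below every WT array, as they do in 17.3% of all genes.

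Of 36 other genes of the apoptosis machinery, 2 fell and 1 rose (8.33% called, against 12.7% of all genes), with a median difference of 0.04. Birc5, which encodes survivin, an inhibitor of apoptosis that also works in mitosis, had a WT mean of 7.39 ± 0.12 (SD, n = 4) and a Y1KO mean of 6.59 ± 0.02 (SD, n = 2), and fell by 0.80 (SE 0.10, limma adjusted p = 0.00191). It is also one of the 19 cell cycle genes that fell. Casp8ap2, a nuclear protein gene needed for histone expression in S phase and first named for binding caspase-8, read 6.41, 6.55, 6.38 and 6.50 in WT and 5.89 and 5.81 in Y1KO, at -0.61 (SE 0.09, limma adjusted p = 0.00386). It lost the call without Y1KO replicate 2 (limma adjusted p = 0.0638). Dffa, which encodes the inhibitor of the DNA-cutting nuclease of apoptosis, rose by 0.39 (SE 0.09, limma adjusted p = 0.0284), and lost the call without WT replicate 1, WT replicate 2 or either Y1KO array and with the replicate number as a block.

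The targets of p53 moved in both directions. Of 43 measured genes, 3 rose and 6 fell (20.9% called, against 12.7% of all genes), with a median of -0.01. In level, 37 of the 43 lay above the median gene in WT. With the filter at the 40th percentile of mean level, 3 of the list rose and 7 fell, and 23.0% of all genes kept were called. Of the 43, 6 are also among the members described above, and 0 of those 6 passed the test (3 had an unadjusted p under 0.05, 1 higher and 2 lower). Epha2, a receptor of ephrins, rose by 1.03 from a WT level of 7.44 ± 0.20 (SD, n = 4) to 8.47 ± 0.14 (SD, n = 2) (SE 0.14, limma adjusted p = 0.00235). Polk, a polymerase that copies past damaged DNA, fell by 1.07, Ckap2, a spindle protein gene, by 0.75, and Pml, the gene of nuclear bodies, by 0.67, with limma adjusted p of 0.0057, 0.0075 and 0.00756. Without Y1KO replicate 1 the list had 1 rising and 3 falling genes, without Y1KO replicate 2 it had 1 and 0, and with the replicate number as a block 1 and 8. Cdkn1a is not analysed here. Over the 4 related lists without the members, 6 of 127 measured genes rose and 11 fell (13.4%). The lists differed in this share: it was 24.3% for the 37 p53 targets that are not members and 8.11% to 11.8% for the other 3 lists, differences that were not tested. They also differed in level. Above the median gene in WT lay 32 of these 37 targets and 4 of the 17 inflammasome genes. In the other lists it was 28 of 36 and 29 of 37. A link between level and the share called was not tested.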

How the data were processed

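The deposited table gives a log2 level for each of 28815 probe sets on each array. Per the submitters' processing notes the authors used RMA and limma; versions, settings, build and probe annotation are not given there. Array medians lay between 5.30 and 5.37, so the values were used without further normalization. Of the probe sets, 21780 had 1 symbol in the platform annotation (1605 several, 5430 none listed), which gave 19935 genes. Genotypes were compared with limma 3.58.1 in R 4.3.3 (lmFit, eBayes, genotype only, two-sided, Benjamini-Hochberg over all genes). Whether each array is a separate mouse is not stated, so the p-values reflect array-to-array spread, which may be technical. The number of arrays limits the precision.

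The members and lists were chosen with earlier results of these data known. Array values were planned for called members, and those of other members were added after their values were seen. From each related list up to 4 called genes of smallest p were named, and Cdkn1a. No set test was run. Upstream windows came from RefSeq (GRCm38.p6), and motifs were chosen after the calls were known. The fit was tested on simulated data. Alternatives were quantile normalization, median centring, 2 filters on low levels, 2 probe set rules, trend and robust options, no moderation, array weights, the replicate number as a block, and leaving out each array.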

Additional observations from a re-analysis of the deposited data

How the results depend on the processing

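The 4 members called lower became 7 with array weights and with the filter at the 40th percentile of mean level, 2 with arrays centred on their medians, 0 without moderation of the variance, and 0 to 3 when 1 array was left out. The 0 called higher became 1 (Birc2) with array weights and with the replicate block, and 0 to 1 when 1 array was left out. All genes called fell from 2541 to 344 without moderation and lay between 487 and 2462 when 1 array was left out. The share of all genes called was 12.7% in the fit used above, 15.6% with array weights and 23.0% with the filter at the 40th percentile. It was 13.2% with median-centred arrays and 1.73% without moderation. Without moderation all 4 members lost their calls, at adjusted p of 0.115 for Casp1, 0.129 for Casp8, 0.134 for Bok and 0.209 for Ripk3. Over 16 alternatives Casp1 lost its call in 2, Bok in 3, Ripk3 in 6 and Casp8 in 9, and none of the 4 changed sign. Of 534 member values under the alternatives, 483 kept direction and side of the threshold, 20 lost a call, 14 gained one and 17 changed sign, all of these in members that were not called.

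The sign turned for Casp6 with quantile normalization (0.048), median centring (0.052) and the replicate block (0.017), for Diablo likewise (0.028, 0.020 and 0.036), for Mcl1 with quantile normalization (-0.038), and for Bak1 (0.0074) and Bik (0.034) with median centring. When 1 array was left out the differences ran from -0.074 to 0.042 for Casp6, -0.011 to 0.055 for Mcl1, -0.12 to 0.0013 for Bak1, -0.052 to 0.000575 for Bik, -0.011 to 0.083 for Bmf, -0.13 to 0.40 for Pmaip1 and -0.079 to 0.017 for Diablo.

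The titles give both genotypes the replicate numbers 1 and 2. The deviations of same-numbered arrays from their group means correlated at 0.01 and -0.20 over all genes. With 2 Y1KO arrays these deviations mirror each other, so the correlations cannot decide whether the numbers mark pairs. In the main fit the numbers were not taken as pairs. With the replicate block 4 members were called lower and 1 higher, and 2181 genes in all; in it WT replicates 3 and 4 have no partner and do not bear on the difference. Where 1 Y1KO array was left out, the lone one was assumed to vary like the WT arrays. The cause of these shifts was not tested. Dim genes such as Casp4, Bik, Bcl2l11, Bmf and Fas, below the median level in WT, are where the array can understate a difference.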

Other observations

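The WT arrays parted in several death receptor genes in ways the labels do not explain. WT replicate 2 was the highest array for Tnfrsf10b (8.10), Tnfrsf12a (9.81) and Ripk3 (9.36), and WT replicate 3 the lowest WT array for Tnfrsf12a (8.72) and Ripk3 (8.74). WT replicate 3 was instead the highest array for Casp1 (7.08), Casp12 (7.36), Cflar (7.81) and Zbp1 (5.96). The summed level of smooth muscle and pericyte markers was highest in WT replicate 2 (18441) and that of osteoblast markers lowest there (37154, against 42683 to 44334 in the other WT arrays). Among the 47 genes tested, none had a WT array set apart far enough for Dixon's test, where 1 in 20 would be by chance.

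Other p53 targets that passed were picked out after inspection of the values. Phlda3, an inhibitor of AKT, fell by 0.55 (SE 0.10, limma adjusted p = 0.0093), Dram1, a regulator of autophagy, by 0.62 (limma adjusted p = 0.0121) and Gtse1, a mitotic gene, by 0.62 (limma adjusted p = 0.0403). Fbxw7, a ubiquitin ligase subunit, rose by 0.52 (limma adjusted p = 0.0169). Sesn2, a stress-responsive inhibitor of mTORC1, read 7.29 to 7.33 in WT and 7.60 and 7.70 in Y1KO, and rose by 0.34 (SE 0.08, limma adjusted p = 0.0296). Over 16 alternatives (15 for Fbxw7) Gtse1 lost its call in 7, among them quantile normalization, median centring and leaving out WT replicate 1, 2 or 4. Sesn2 lost it in 5, Fbxw7 in 4, and Phlda3 and Dram1 in 3 each, and these 4 all lost it when Y1KO replicate 1 or Y1KO replicate 2 was left out.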
